A study of Danio rerio with 35 samples.

Results

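Apolipoprotein Eb (apoeb, ENSDARG00000040295), apolipoprotein C-I (apoc1, ENSDARG00000092170), microsomal triglyceride transfer protein (mttp, ENSDARG00000008637), antifreeze protein type IV (afp4, ENSDARG00000095863) and cathepsin L-like (ctsll, ENSDARG00000011701) are 5 zebrafish genes of yolk lipid transport and of the layer of the embryo that faces the yolk. They were matched by Ensembl identifier and taken from the 27151 genes of the exon table and the 24124 genes of the intron table, and all 5 were in both. The rule names the genes and uses no measured value, but earlier results of these data were known when the genes were chosen.

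The yolk syncytial layer is a shared cytoplasm with many nuclei between the yolk cell and the blastoderm, and the embryo draws its early nutrients through it. Yolk protein is broken down by lysosomal proteases such as the cathepsins, and yolk lipid is packed into lipoprotein particles for export. The mttp protein loads lipid onto apolipoprotein B as a particle forms, the apoeb product is a surface apolipoprotein of the family recognised by LDL-type receptors, and C-I is a small surface apolipoprotein that in mammals slows particle uptake. The type IV antifreeze proteins are related in sequence to the exchangeable apolipoproteins.

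Whole embryos were collected 2, 4, 6 or 8 hours after fertilization (hpf), while maternal RNA gives way to zygotic transcription, and gave 31 RNA libraries plus 4 libraries of ribosome footprints and their input RNA. WT embryos (strain TUAB) were untreated. Loss of function used morpholinos (MO, antisense oligonucleotides) against Nanog or SoxB1, injected at the 1-cell stage, the line MZpou5f1, which is homozygous for the hi349Tg allele and lacks maternal and zygotic Pou5f1 (gene symbol pou5f3), and their combinations. MZpou5f1 Nanog+SoxB1 MO is called triple loss of function here, and a further group was the same with rescue mRNA, whose content the labels do not give. Other embryos received alpha-amanitin, an inhibitor of RNA polymerase II, cycloheximide, an inhibitor of translation, or U1U2 MO, directed at splicing RNAs.

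More than 1 library existed for WT (n = 3) and for Nanog+SoxB1 MO (n = 2), both as total RNA at 6 hpf. Replicates are labelled only as separate samples, so the p-values measure the spread between these samples. WT was the control throughout, so the comparisons with WT at a stage share their control libraries. Injection itself and loss of the factor cannot be told apart, since the WT embryos were not injected. Levels are in RPKM, reads scaled to gene length and library size, from which read counts cannot be taken directly. The relative depth read from the smallest value steps ran from 0.227 to 2.58, where WT total RNA at 4 hpf is 1. The targeted gene checked the mutant label: pou5f3 was at 394 to 488 RPKM in WT at 6 hpf and at 0.646 to 4.63 RPKM in the MZpou5f1 total RNA libraries of that stage. The morpholinos have no such check here. At 6 hpf nanog RNA was at 402 to 663 RPKM in the Nanog MO and Nanog+SoxB1 MO libraries and at 94.6 to 193 RPKM in WT. At 4 hpf, the library labelled MZpou5f1 held 28.0 RPKM of pou5f3, beside 157 RPKM in WT and 0.088 to 1.87 RPKM in its MO-injected MZpou5f1 counterparts, so the effects of the 4 hpf model are also given without it where they could be fitted. In these bulk samples, fewer cells of a type and less RNA per cell cannot be told apart.

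All 5 genes came on between 2 and 6 hpf in WT, with apoeb ahead of the others. In the WT total RNA library at 2 hpf, apoeb, afp4 and ctsll were listed at 0, mttp was at 0.094 RPKM and apoc1 was at 0.624 RPKM. The apoc1 value corresponded to an estimated 2 reads and the mttp value to 1 read. At 4 hpf, apoeb had reached 62.3 RPKM in total RNA and 91.8 RPKM in poly(A)+ RNA, which placed it 1546th and 956th among the 27151 genes. At the same stage apoc1 was at 5.31 RPKM in total and 8.77 RPKM in poly(A)+ RNA. The other 3 genes were below 1 RPKM at 4 hpf: ctsll was at 0.775 RPKM in total RNA and listed at 0 in poly(A)+ RNA, mttp was at 0.088 and 0.025 RPKM, and afp4 was listed at 0 in both.

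By 6 hpf the 5 genes were among the abundant messages of the embryo. The apoeb level in the 3 WT total RNA libraries was 1068, 874 and 909 RPKM, a mean of 950 ± 103 (SD, n = 3) and rank 91. The apoc1 level was 548, 460 and 509 RPKM, a mean of 506 ± 44.2 (SD, n = 3). These apolipoproteins stood above the other members in each library. The ctsll level was 340, 342 and 333 RPKM (338 ± 4.61, SD, n = 3), that of afp4 was 274, 261 and 275 RPKM (270 ± 7.78, SD, n = 3), and that of mttp was 207, 193 and 182 RPKM (194 ± 12.8, SD, n = 3). The ranges of the 5 genes over the 3 libraries did not overlap, and mttp, the lowest, ranked 418th.

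Every member rose from 4 to 6 hpf in limma. The log2 change was +3.92 ± 0.17 (SE) for apoeb, +6.44 ± 0.17 for apoc1, +8.37 ± 0.20 for mttp and +8.05 ± 0.17 for ctsll, on the log2(RPKM + 0.5) scale, with adjusted p from 1.4e-05 to 4.6e-05. For afp4, which was listed at 0 at 4 hpf, the adjusted p was 1.4e-05 and no fold is given. All 5 were called higher, beside 22.5% of the 14808 genes tested. Of these, mttp, afp4 and ctsll passed the filter on low values only through the 6 hpf libraries, so a difference was built in and their calls add nothing to the levels above. The sizes for mttp and ctsll, at 0.088 and 0.775 RPKM at 4 hpf, also depend on the added 0.5. Against 2 hpf all 5 were also called higher (adjusted p at most 1.6e-06), beside 26.4% of genes. At 2 hpf all 5 were below 1 RPKM and passed the filter only through the later libraries. A rise from 2 hpf was thus built in, and these 5 calls add nothing to the levels above. The single 4 and 2 hpf libraries were assumed to vary like the 6 hpf replicates. Centring each library on its median moved log2 changes of all genes by +0.57 (4 hpf) and +0.60 (2 hpf) and turned the calls from 3339 higher and 5657 lower to 4997 and 3474, and from 3905 and 6295 to 5381 and 4170. The 5 calls were kept in all 9 alternatives of each comparison.

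In poly(A)+ RNA, where each stage had 1 library, all 5 genes were higher at 8 than at 6 hpf, by unequal ratios. The afp4 level went from 508 to 927 RPKM (a ratio of 1.82), the apoeb level from 1383 to 1733 RPKM, that of ctsll from 305 to 426 RPKM, that of mttp from 119 to 171 RPKM and that of apoc1 from 630 to 667 RPKM (a ratio of 1.06). At 8 hpf apoeb ranked 18th and afp4 45th. The kind of RNA mattered differently for each gene at 6 hpf. The poly(A)+ level was 1.88 times the mean total RNA level for afp4, 1.45 times for apoeb, 1.25 times for apoc1, 0.901 times for ctsll and 0.612 times for mttp. No test compares poly(A)+ with total RNA, and in the rescue model, which holds both, each stage is of 1 kind and is a block.

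**Figure D1:**
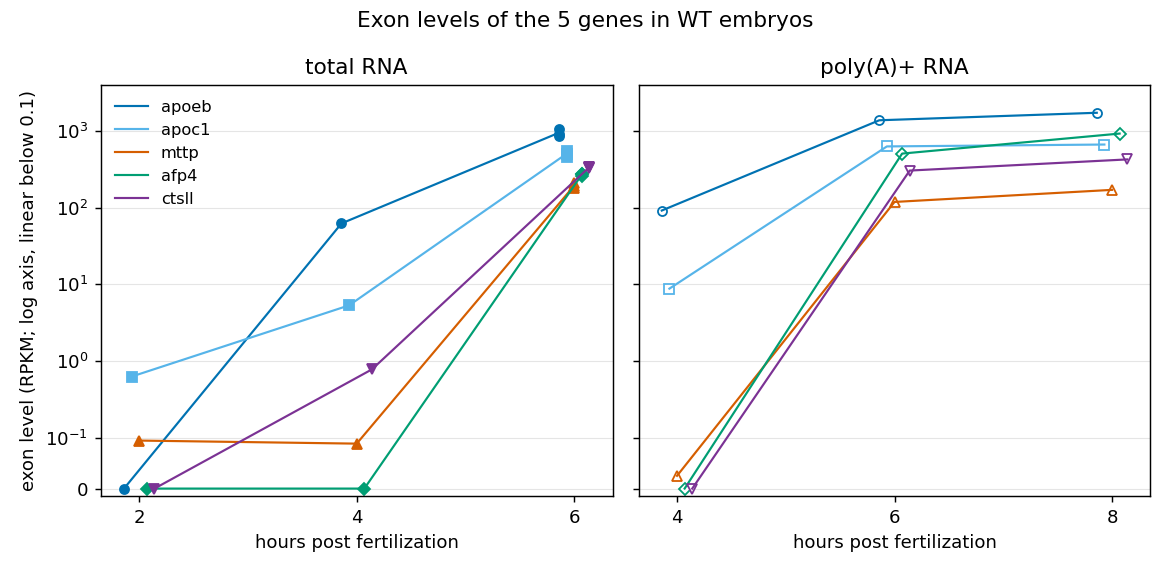
Exon level (RPKM, log axis, linear below 0.1) against hours post fertilization in WT, with total RNA in the left panel and poly(A)+ RNA in the right, 1 point per library. In total RNA at 4 hpf apoeb stands at 62.3 RPKM and apoc1 at 5.31 RPKM while the other genes are below 1 RPKM, and at 6 hpf all 5 lie between 182 and 1068 RPKM.

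In Nanog+SoxB1 MO embryos the 5 genes were far below their WT level at 6 hpf, in the comparison with replicates on both sides. In the Nanog+SoxB1 MO libraries apoeb was at 21.1 and 32.6 RPKM and apoc1 at 11.5 and 15.4 RPKM. The mttp level was 0.257 and 0.776 RPKM, that of afp4 was 1.15 and 2.61 RPKM, and that of ctsll was 1.02 and 2.32 RPKM. No Nanog+SoxB1 MO library came near a WT library for any of the genes, and the lowest values, those of mttp, correspond to an estimated 2 and 8 reads against 1794 to 2761 reads in WT. The share of all genes whose libraries separate in this way was not counted.

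The group means were 2.82% of WT for apoeb, 2.65% for apoc1, 0.696% for afp4, 0.493% for ctsll and 0.266% for mttp. In limma the log2 change was -5.15 ± 0.19 (SE) for apoeb, -5.20 ± 0.16 for apoc1, -7.63 ± 0.25 for mttp, -6.90 ± 0.27 for afp4 and -7.35 ± 0.26 for ctsll. Adjusted p ran from 1.5e-05 to 3.1e-05. All 5 fell, beside 14% of the 16242 genes tested, and the members' median change was -6.90 beside +0.30 over all genes. Below 1 RPKM in both Nanog+SoxB1 MO libraries, mttp passed the filter on low values only through other libraries. A fall of mttp was thus built in, and its call adds nothing to the levels. The size of the mttp change also depends on the added 0.5. Centring each library moved the changes of all genes by -0.29 and turned 4914 higher and 2276 lower calls into 3342 and 3519, so that 21.7% of genes were lower. The 5 calls were kept in all 13 alternatives.

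With Nanog MO alone, in 1 library, the same 5 genes were lower than in WT but not equally. The apoeb level was 201 RPKM, or 21.2% of the WT mean, and that of apoc1 was 39.6 RPKM, or 7.83%. The mttp level was 3.33 RPKM (1.72%), that of ctsll was 2.55 RPKM (0.754%) and that of afp4 was 1.66 RPKM (0.614%). The log2 changes were -2.23 ± 0.24 (SE), -3.65 ± 0.20, -5.66 ± 0.32, -6.79 ± 0.33 and -6.97 ± 0.34 in that order, and limma called all 5 lower (adjusted p 2.2e-04 to 0.0018), beside 10.1% of genes. Centring turned 3088 higher and 1636 lower calls into 2192 and 2740, or 16.9% lower. Here, and in the other conditions with a single library, its spread was taken from the replicates of WT and Nanog+SoxB1 MO.

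With SoxB1 MO added to Nanog MO, apoeb and apoc1 were called lower and mttp missed the threshold narrowly. Between Nanog+SoxB1 MO and Nanog MO, apoeb fell by another 2.92 ± 0.26 (SE, log2, adjusted p = 0.0104) and apoc1 by 1.54 ± 0.22 (adjusted p = 0.0345). These were 2 of the 100 genes called lower, which are 0.616% of those tested. The change of mttp was -1.96 ± 0.34 (adjusted p = 0.0636, but 0.0277 with a filter at 5 RPKM and 0.0371 with centred libraries), that of ctsll was -0.56 ± 0.35 (adjusted p = 0.505) and that of afp4 was +0.07 ± 0.36 (adjusted p = 0.955). For afp4 the Nanog MO library, at 1.66 RPKM, lay between the Nanog+SoxB1 MO replicates. These calls were fragile: leaving out 1 library at a time left 3 to 124 genes called in either direction against 153, and the adjusted p of apoeb was then 0.0513 without WT replicate 2, 0.129 without Nanog+SoxB1 MO replicate 1 and 0.0763 without its replicate 2. The adjusted p of apoc1 was 0.0673 to 0.208 over the same settings.

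**Figure D2:**
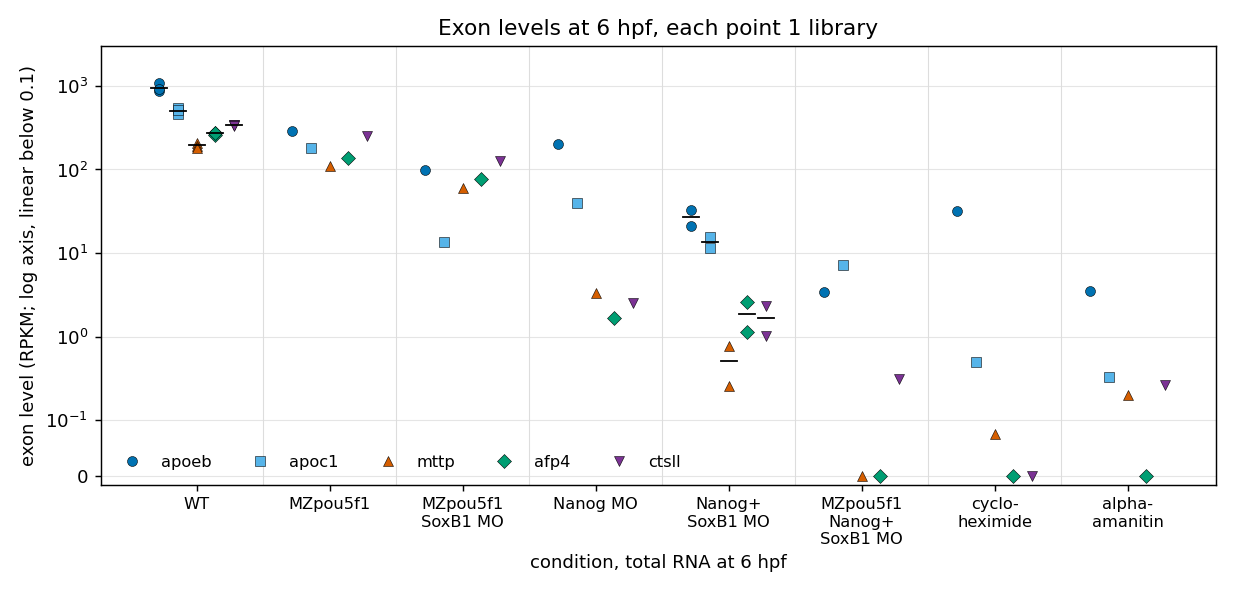
Exon level (RPKM, log axis, linear below 0.1) of the 5 genes in each total RNA library at 6 hpf, by condition, 1 point per library. The 3 WT libraries lie between 182 and 1068 RPKM and the 2 Nanog+SoxB1 MO libraries between 0.257 and 32.6 RPKM, while the MZpou5f1 library keeps all 5 genes between 109 and 286 RPKM.

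MZpou5f1 embryos held 30.1 to 74.1% of the WT level of the 5 messages at 6 hpf, and apoeb and apoc1 were called lower. The single library held 286 RPKM of apoeb (30.1% of the WT mean), 180 RPKM of apoc1 (35.6%), 136 RPKM of afp4 (50.3%), 109 RPKM of mttp (56.4%) and 251 RPKM of ctsll (74.1%). All 5 values were below each WT library, but the share of all genes with such an order was not counted. In limma apoeb fell by 1.73 ± 0.24 (SE, log2, adjusted p = 0.0163) and apoc1 by 1.48 ± 0.20 (adjusted p = 0.0155), beside 2.73% of genes called lower. Centring turned 363 higher and 443 lower calls into 328 and 677, or 4.17% lower. The changes of afp4, mttp and ctsll were -0.99 ± 0.34, -0.82 ± 0.32 and -0.43 ± 0.33 (adjusted p = 0.146, 0.178 and 0.455), so differences of this size were not separated from the spread. The calls rested on single replicates: the adjusted p of apoeb was 0.0528 without WT replicate 1 and 0.0514 without WT replicate 2, and that of apoc1 was 0.0530 without WT replicate 1, 0.0518 without Nanog+SoxB1 MO replicate 1 and 0.0532 without its replicate 2.

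Adding SoxB1 MO to MZpou5f1 took apoc1 from 180 to 13.7 RPKM, which is 2.71% of WT. The other members stayed higher: apoeb was at 97.4 RPKM (10.2% of WT), mttp at 60.6 RPKM (31.2%), afp4 at 77.3 RPKM (28.6%) and ctsll at 126 RPKM (37.1%). Against WT all 5 fell in limma (log2 -3.28, -5.15, -1.67, -1.80 and -1.43 for apoeb, apoc1, mttp, afp4 and ctsll, with SE from 0.20 to 0.34 and adjusted p from 1.4e-04 to 0.024), beside 9.04% of genes. Centring turned 2696 higher and 1469 lower calls into 1587 and 2381, or 14.7% lower. The ctsll call was lost without WT replicate 1 (adjusted p = 0.0617) or replicate 2 (adjusted p = 0.0638). Against MZpou5f1 without the morpholino, apoc1 fell by 3.67 ± 0.25 (SE, log2, adjusted p = 0.00972) and was 1 of 19 genes called lower, which are 0.117% of those tested. The change of apoeb was -1.55 ± 0.30 (adjusted p = 0.149), and the other 3 genes changed by -0.81 to -0.99 (adjusted p 0.458 to 0.576). The apoc1 call was lost on leaving out any of the 5 replicates (adjusted p 0.0662 to 0.0990), each of which left 0 to 2 genes called.

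In triple loss of function, afp4 and mttp were listed at 0 in total RNA at 6 hpf, ctsll was at 0.312 RPKM, apoeb at 3.48 RPKM and apoc1 at 7.25 RPKM. In this library apoc1 was above apoeb, whereas apoeb was the higher of the pair in the WT libraries at 6 hpf and, at 19.6 against 16.2 RPKM, in the triple loss poly(A)+ library of that stage. In the total RNA library mttp, afp4 and ctsll were below 1 RPKM, so they passed the filter on low values only through other libraries. A fall was thus built in for them against WT and against MZpou5f1 SoxB1 MO, and their calls add nothing to the levels. All 5 fell against WT in limma (adjusted p 1.3e-05 to 2.2e-05), beside 15.7% of genes. Centring turned 5326 higher and 2544 lower calls into 3327 and 4083, or 25.1% lower. Against MZpou5f1 SoxB1 MO, and so for the loss of Nanog in that background, 4 members fell, beside 2.35% of genes, with 246 genes higher and 382 lower, or 222 and 593 after centring. The log2 change was -4.62 ± 0.30 (SE) for apoeb and -7.28 ± 0.40 for ctsll (adjusted p 7.4e-04 and 4.1e-04), and the adjusted p was 4.1e-04 for mttp and 4.8e-04 for afp4. The change of apoc1 was -0.88 ± 0.25 (adjusted p = 0.116), and its level had already been at 13.7 RPKM before Nanog was removed.

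Both inhibitors left little of the 5 messages at 6 hpf. With alpha-amanitin apoeb was at 3.54 RPKM, apoc1 at 0.333 RPKM, ctsll at 0.268 RPKM and mttp at 0.202 RPKM, and afp4 was listed at 0. With cycloheximide apoeb was at 31.9 RPKM, 3.36% of WT, and was the only member above 1 RPKM: apoc1 was at 0.494 RPKM and mttp at 0.075 RPKM, while afp4 and ctsll were listed at 0. Below 1 RPKM in both inhibitor libraries, apoc1, mttp, afp4 and ctsll passed the filter on low values only through other libraries. A fall was thus built in for them, and their calls below add nothing to these levels. All 5 fell in each (limma, adjusted p at most 5.3e-06 with alpha-amanitin and at most 3.2e-05 with cycloheximide), beside 28.7% and 23% of genes. Centring turned 5039 higher and 4669 lower calls into 3271 and 5969 (36.8% lower) with alpha-amanitin, and 6098 and 3728 into 3980 and 5554 (34.2% lower) with cycloheximide. Over these comparisons with WT, centring moved the log2 changes of all genes by -0.13 in MZpou5f1 to -0.59 with cycloheximide.

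The introns, which mark RNA not yet spliced, gave a second measure of the same libraries. Intron levels in WT at 6 hpf were 80.0, 87.2 and 85.5 RPKM for apoeb, 32.0, 34.2 and 40.7 RPKM for apoc1, 18.3, 18.1 and 17.1 RPKM for ctsll, 10.1, 11.8 and 13.0 RPKM for afp4, and 6.80, 6.36 and 7.60 RPKM for mttp. In the Nanog+SoxB1 MO libraries they were 2.09 and 5.77 RPKM for apoeb and 0.920 and 1.04 RPKM for apoc1. The introns of mttp, afp4 and ctsll were listed at 0 in replicate 1 and were at 0.057, 0.265 and 0.548 RPKM in replicate 2. No library of one group reached the other for any member, but how often this holds over all genes was not counted. In limma on log2(intron RPKM + 0.1) the change was -4.56 ± 0.45 (SE) for apoeb, -5.04 ± 0.15 for apoc1, -5.80 ± 0.25 for mttp, -5.93 ± 0.59 for afp4 and -6.14 ± 0.83 for ctsll. With introns listed at 0 in replicate 1, the sizes for mttp, afp4 and ctsll depend on the added 0.1. The mttp introns were below the filter of 0.1 RPKM in both Nanog+SoxB1 MO libraries. A fall of the mttp introns was thus built in, and their call adds nothing to the levels. All 5 fell (adjusted p 0.0043 to 0.0174), beside 11.5% of the 14336 genes tested. Without WT replicate 1, the adjusted p was 0.0507 for apoeb and afp4 and 0.0709 for ctsll. The adjusted p of ctsll was also 0.0677 and 0.0612 without WT replicates 2 and 3, and leaving out 1 library left 745 to 1593 genes called against 2474.

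In MZpou5f1 no intron change of a member was called, and each intron stood at a higher share of WT than the exons of the same gene. Intron levels were 62.8 RPKM for apoeb (74.6% of WT), 38.5 RPKM for apoc1 (108%), 12.5 RPKM for afp4 (108%), 20.4 RPKM for ctsll (115%) and 8.07 RPKM for mttp (117%), beside exon levels of 30.1 to 74.1% of WT. The apoeb, mttp and ctsll introns lay outside the WT range, apoeb below and the others above, and apoc1 and afp4 lay within it. Limma called 0 of the 5 introns (adjusted p 0.809 to 0.982, and 0 at an unadjusted p under 0.05), beside 0.977% of genes in either direction. Of the 14336 genes tested, 2232 had an unadjusted limma p under 0.05. The contrast of exons with introns was tested as the difference of their log2 values, a test added after the values were seen. The difference was -1.60 ± 0.36 (SE) for apoc1, -1.30 ± 0.45 for apoeb, -1.10 ± 0.47 for afp4, -1.04 ± 0.33 for mttp and -0.63 ± 0.70 for ctsll. Limma called none of the 5 (adjusted p 0.403 to 0.802), beside 0.0236% of 12702 genes in either direction. At an unadjusted limma p under 0.05 there were 3, which were apoc1, mttp and apoeb. The share of all genes at that unadjusted threshold was not taken out, so these 3 cannot be read as an excess.

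With Nanog MO the apoeb intron was at 30.0 RPKM (35.7% of WT), that of apoc1 at 2.65 RPKM (7.43%), and those of mttp, afp4 and ctsll at 0.307, 0.405 and 0.209 RPKM. Limma called apoc1, mttp and afp4 lower (adjusted p 0.0187 to 0.0442), beside 6.21% of genes, but not ctsll (adjusted p = 0.0503) or apoeb (log2 change -1.48 ± 0.56 SE, adjusted p = 0.184). The 3 calls were lost on leaving out any of the WT replicates (adjusted p 0.0670 to 0.126, with 0 genes called), but not on leaving out either Nanog+SoxB1 MO replicate. In MZpou5f1 SoxB1 MO the apoc1 intron was at 3.80 RPKM (10.7% of WT) and fell by 3.19 ± 0.19 (SE, log2, limma adjusted p = 0.0099), beside 1.86% of genes. The call was lost without WT replicate 1 (adjusted p = 0.0739) or replicate 2 (adjusted p = 0.0643). The apoeb intron was at 22.0 RPKM (26.1%, adjusted p = 0.153, and 0.0244 without either Nanog+SoxB1 MO replicate), and those of mttp, afp4 and ctsll were at 68.1 to 80.7% of WT (adjusted p 0.396 to 0.900). These intron contrasts were also added after the data were seen.

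**Figure D3:**
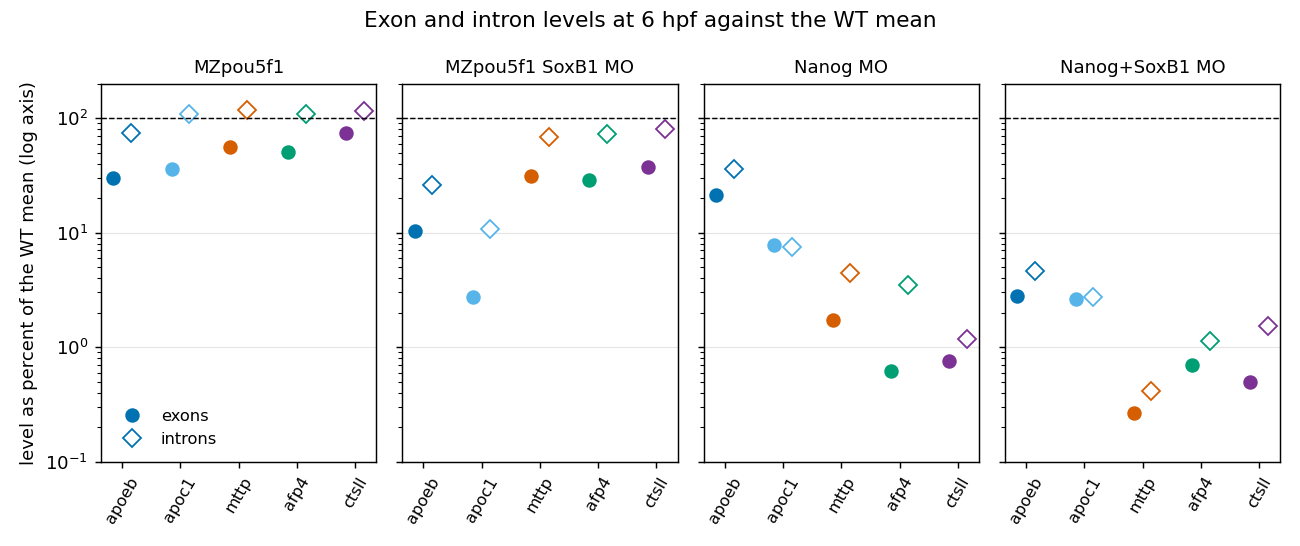
Exon and intron level of each gene at 6 hpf as a percentage of the WT mean (log axis), 1 panel per condition, with the dashed line at the WT mean of 100%. In MZpou5f1 the introns lie between 74.6 and 117% and the exons between 30.1 and 74.1%, whereas in Nanog+SoxB1 MO both lie under 5%.

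At 4 hpf apoeb, apoc1 and ctsll passed the filter of 1 RPKM in at least 2 libraries, and mttp and afp4, which were at 0.263 RPKM or less in all 4 hpf libraries but SoxB1 MO (afp4 at 0.593 RPKM), did not. Each condition had 1 library. The apoeb level was 62.3 RPKM in WT, 66.5 RPKM with SoxB1 MO and 16.6 RPKM with Nanog MO, but 0.878 RPKM with both. In MZpou5f1 it was 10.5 RPKM, with SoxB1 MO added 4.49 RPKM, with Nanog MO added 0.798 RPKM and in triple loss of function 1.17 RPKM. Every library with Nanog MO was thus below the library of the same Pou5f1 and SoxB1 state without Nanog MO. The apoc1 level was 5.31 RPKM in WT, 5.02 RPKM with SoxB1 MO, 1.36 RPKM with Nanog MO and 0.511 RPKM with both, an estimated 55, 23, 7 and 2 reads. The ctsll level was 0.775, 0.614, 0.078 and 0.205 RPKM in the same order. In MZpou5f1 apoc1 was at 3.26 RPKM, with SoxB1 MO added 1.05 RPKM, with Nanog MO added 0.775 RPKM and in triple loss 2.21 RPKM. For apoc1, triple loss (an estimated 17 reads) was thus above MZpou5f1 SoxB1 MO (8 reads). The ctsll level was 1.51, 1.26, 0.109 and 0.208 RPKM in these MZpou5f1 libraries.

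The additive model of the 8 factor libraries, with the factors present or absent, gave a Nanog MO effect on apoeb of -3.04 ± 0.61 (SE, log2, limma adjusted p = 0.0223) and on apoc1 of -1.21 ± 0.45 (adjusted p = 0.151). For ctsll the estimate was -1.21 ± 0.22 (adjusted p = 0.0156), but ctsll passed the filter only through the MZpou5f1 and MZpou5f1 SoxB1 MO libraries. Both are without Nanog MO, so a difference was built in and its call is not counted. Both are also MZpou5f1 libraries, so a higher ctsll level in MZpou5f1 was built in too, and the MZpou5f1 effect on ctsll is no test of it. Beside the call of apoeb, 2.34% of the 14498 genes were called lower, 339 genes against 775 higher, and with centred libraries 2.63%, 381 genes against 449 higher. The MZpou5f1 effect on apoeb was -2.42 ± 0.61 (adjusted p = 0.0130), beside 18% of genes called lower, and it was not called for apoc1 (-0.40 ± 0.45, adjusted p = 0.514) or ctsll (+0.35 ± 0.22, adjusted p = 0.238). Without the library labelled MZpou5f1 the adjusted p for apoeb was 0.0397 for the MZpou5f1 effect, 0.0537 for the Nanog MO effect and 0.504 for the SoxB1 MO effect, and ctsll no longer passed the filter, so its effects were not tested without that library. The Nanog MO effect on apoeb was also lost without the WT (adjusted p = 0.0501), SoxB1 MO (0.0691) or MZpou5f1 Nanog MO (0.0878) library. For apoc1, calls were instead gained: the Nanog MO effect had a limma adjusted p of 0.0434 without MZpou5f1 SoxB1 MO and 0.0217 without triple loss, and the MZpou5f1 effect of 0.0398 without triple loss. None of the apoc1 effects was called without the library labelled MZpou5f1. They were then -1.17 ± 0.53 (SE, log2) for Nanog MO, -0.25 ± 0.53 for SoxB1 MO and -0.44 ± 0.53 for MZpou5f1.

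No effect of SoxB1 MO alone was called for the 3 genes at 4 hpf. It was -1.08 ± 0.61 (SE, log2) for apoeb, -0.29 ± 0.45 for apoc1 and +0.03 ± 0.22 for ctsll (limma adjusted p 0.396 to 0.959, and 0 of 3 at an unadjusted p under 0.05), beside 0.0552% of genes called lower. Over all genes, 13 were called higher and 8 lower, or 2 and 6 with centred libraries, and 2491 had an unadjusted p under 0.05. An additive effect averages over the states of the other factors, and for apoeb the SoxB1 MO library stood at 107% of WT while adding SoxB1 MO to Nanog MO took it from 16.6 to 0.878 RPKM. Whether these differ was not tested, since each state had 1 library.

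At 4 hpf the apoeb exon level was lower than in WT in both inhibitor libraries, and its intron level was higher with U1U2 MO. With alpha-amanitin apoeb was at 0.396 RPKM, apoc1 at 0.134 RPKM and ctsll at 0.054 RPKM. With cycloheximide apoeb was at 3.96 RPKM, 6.36% of WT, and apoc1 at 0.412 RPKM. With U1U2 MO the apoeb exons were at 49.9 RPKM, or 80.2% of WT, and its introns at 89.3 RPKM beside 21.6 RPKM in WT, or 413%. The apoc1 introns were at 2.43 RPKM with U1U2 MO and 2.61 RPKM in WT, and its exons at 2.42 and 5.31 RPKM. The ctsll exons were at 0.069 RPKM with U1U2 MO and 0.775 RPKM in WT, an estimated 2 and 20 reads. These single libraries have no replicate check.

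**Figure D4:**
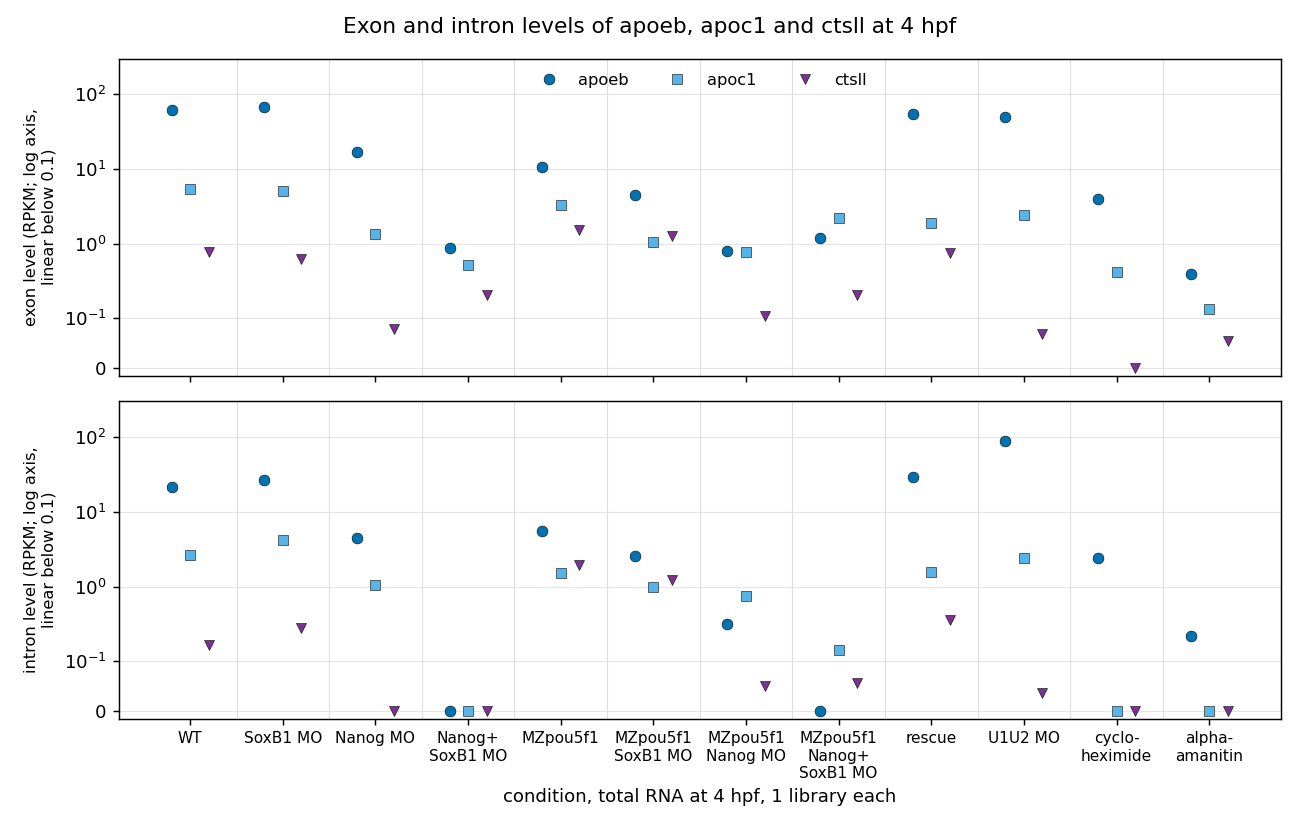
Exon and intron level (RPKM, log axis, linear below 0.1) of apoeb, apoc1 and ctsll in the total RNA libraries at 4 hpf, 1 point per library. The apoeb exon level runs from 66.5 RPKM with SoxB1 MO to 0.798 RPKM with MZpou5f1 Nanog MO among the factor libraries, and in U1U2 MO its introns, at 89.3 RPKM, stand above its exons, at 49.9 RPKM.

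Rescue mRNA brought back part of the message of every member by 6 and 8 hpf, and that of apoeb already at 4 hpf. In total RNA at 4 hpf apoeb was at 1.17 RPKM in triple loss of function and at 53.8 RPKM with rescue, beside 62.3 RPKM in WT. The apoc1 level at 4 hpf was 2.21 RPKM without and 1.91 RPKM with rescue, and that of ctsll was 0.208 and 0.747 RPKM. In poly(A)+ RNA at 6 hpf, triple loss of function held 19.6 RPKM of apoeb, 16.2 of apoc1, 3.14 of ctsll, 2.15 of afp4 and 0.442 of mttp, and rescue held 550, 107, 145, 210 and 40.8 RPKM. At 8 hpf the values were 18.2, 13.5, 6.86, 3.01 and 0.327 RPKM without and 927, 232, 251, 386 and 53.6 RPKM with rescue, in the same order of genes. Each rescue library at 6 and 8 hpf lay above its triple loss counterpart and below WT for all 5 genes. How many of all genes show this order was not counted.

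Rescue reached different shares of the WT poly(A)+ level. At 8 hpf ctsll was at 58.7%, apoeb at 53.5%, afp4 at 41.7%, apoc1 at 34.8% and mttp at 31.4% of WT. At 6 hpf apoc1 was lowest, at 17.0%, and mttp, apoeb, afp4 and ctsll were at 34.3, 39.8, 41.4 and 47.6%. Over the 9 libraries, with stage as a block, apoeb rose with rescue by 5.14 ± 0.28 (SE, log2, limma adjusted p = 4.8e-04), and was 1 of 97 genes called higher, 0.605% of the 16028 tested. The other 4 members had estimates of +2.19 to +4.22 (adjusted p 0.211 to 0.360, all 4 under an unadjusted p of 0.05). Of the 16028 genes, 1924 were under that unadjusted limma p. Triple loss against WT called apoeb (-5.96 ± 0.28), apoc1 (-3.97 ± 0.82), ctsll (-4.37 ± 0.97) and mttp (-4.84 ± 1.37) lower, with adjusted p of 1.9e-04, 0.0331, 0.0364 and 0.0493, beside 4.64% of genes, while afp4 had an adjusted p of 0.0529. Centring turned 1853 higher and 744 lower calls into 1004 and 1067, or 6.66% lower. Rescue against WT called none of the 5 (adjusted p 0.148 to 0.751, with 1, apoeb, at an unadjusted p under 0.05), beside 0.799% of genes in either direction (98 higher and 30 lower, or 90 and 48 with centred libraries). In that contrast 3945 of the 16028 genes had an unadjusted limma p under 0.05.

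The stage block averages over 4 hpf, at which mttp, afp4 and ctsll were below 1 RPKM in WT. In triple loss mttp was below 1 RPKM at every stage, so its fall against WT was built in by the filter. Without the 4 hpf libraries, all 5 members were called in all 3 contrasts: lower in triple loss (log2 -5.41 to -7.81), higher with rescue than without (+3.37 to +6.55, adjusted p 4.2e-06 to 3.7e-04), and lower with rescue than in WT (-0.92 to -2.04, adjusted p 0.0011 to 0.0039). The genes called then rose from 2597, 98 and 128, of 16028 tested in the main fit, to 10402, 4834 and 7530 in the same order. Calls were thus common among all genes in this setting, and being called does not set the members apart. Without 6 hpf or without 8 hpf, apoeb alone was called in triple loss and in rescue against triple loss, beside 26 to 29 genes in all. Residual spread in this model also holds effects that differ between stages.

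**Figure D5:**
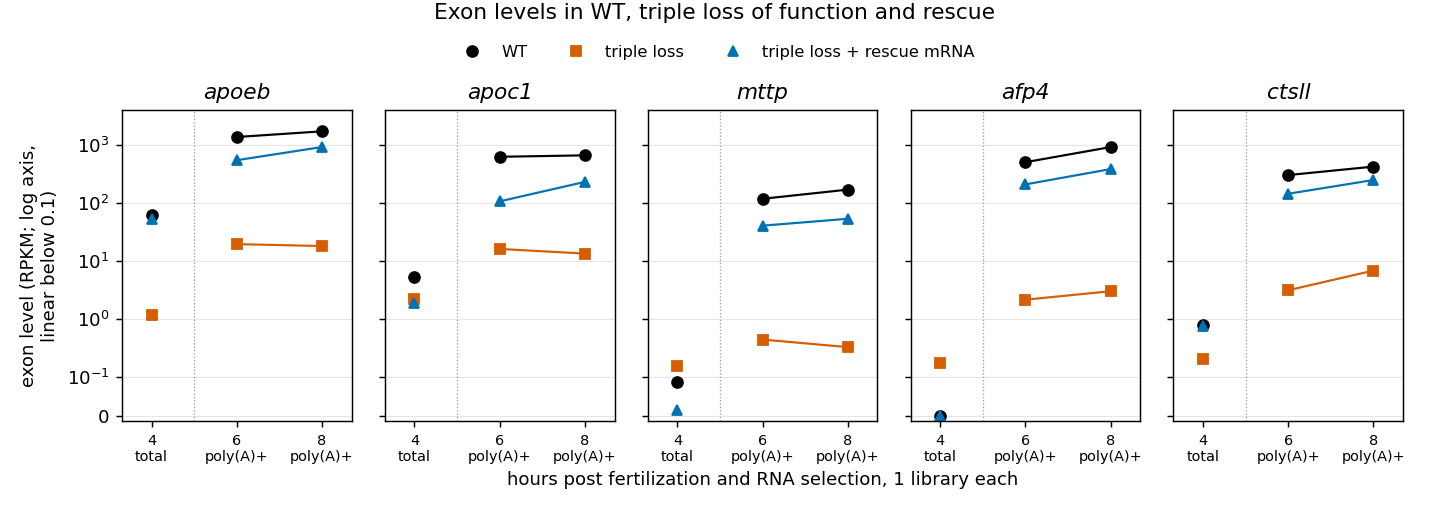
Exon level (RPKM, log axis, linear below 0.1) of each gene, 1 panel per gene, at 4 hpf (total RNA) and at 6 and 8 hpf (poly(A)+ RNA) in WT, triple loss of function and triple loss with rescue mRNA, 1 library per point. At 8 hpf the rescue libraries stand at 31.4 to 58.7% of WT, and apoeb is at 53.8 RPKM with rescue already at 4 hpf.

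The other genes of the pathway did not move as a block in Nanog+SoxB1 MO at 6 hpf. Of 11 further apolipoprotein genes in the table, 5 passed the filter on low values, and 5 were called lower, beside 14% of all genes tested. Genes near zero outside WT pass such a filter mainly through the libraries in which they are high, so this count is a description of those genes. Among them apoa1a fell from 33.7 RPKM in WT with a log2 change of -5.66 ± 0.37 (SE), apoc2 from 24.1 RPKM to a listed 0, apobb.1, an apolipoprotein B, from 2.81 RPKM with a log2 change of -2.52 ± 0.45, and apoa2 from 1.48 RPKM to a listed 0 (adjusted p 5.2e-05 to 0.0048). In MZpou5f1 limma called 0 of these 5, and in MZpou5f1 SoxB1 MO 4 fell, beside 2.73% and 9.04% of all genes called lower. The Ensembl entry of apobb.1, the protein that mttp lipidates, was at 2.81 ± 1.82 RPKM (SD, n = 3) in WT at 6 hpf, beside 194 RPKM for mttp, and at 7.66 RPKM in poly(A)+ RNA at 8 hpf.

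Of 12 tested genes listed for assembly and secretion of the particles, 1 fell, 4 rose and 7 were not called. Over all genes 14% were called lower and 30.3% higher, so the share that rose was near the background. Of these, pla2g12b, which in zebrafish acts in lipoprotein assembly, fell from 27.0 RPKM in WT to a listed 0 (adjusted p 5.7e-05). The listed genes that rose were acat2 (+1.53 ± 0.21, SE, log2), surf4, a cargo receptor (+1.52 ± 0.25), and the vesicle coat genes sar1ab (+1.47 ± 0.36) and sec23b (+0.83 ± 0.21), with adjusted p from 0.0017 to 0.0171. The acat2 gene encodes an acetyl-CoA acetyltransferase, not a sterol acyltransferase, so its rise is not one of particle assembly. The list's median was +0.35, beside +0.30 over all genes. Of 8 tested genes of uptake and lipolysis, abca1b, a lipid exporter (-3.04 ± 0.24), and npc2 (-0.29 ± 0.09) fell, while the receptor genes vldlr (+1.79 ± 0.18) and ldlrb (+1.13 ± 0.25), their chaperone lrpap1 (+1.85 ± 0.14) and abca1a (+1.90 ± 0.45) rose (adjusted p 1.9e-04 to 0.0414), with a median of +0.46. The genes surf4, vldlr and lrpap1 were at 46.9, 35.6 and 74.8 RPKM in WT at 2 hpf and at 13.3, 2.88 and 9.46 RPKM at 6 hpf.

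The protease list held the close relatives of ctsll. Of 11 tested, ctsh (-2.06 ± 0.21, SE, log2), ctsla (-0.84 ± 0.11) and ctss2.1 (-0.78 ± 0.09) fell, while ctsz (+3.39 ± 0.16) and lgmn, which encodes legumain (+0.75 ± 0.24), rose (limma adjusted p 5.3e-05 to 0.0403). The median was 0.00. Over all genes 14% were called lower and 30.3% higher. The ctsz level was 46.5 RPKM at 2 hpf, 43.7 RPKM at 4 hpf and 3.82 RPKM (mean) at 6 hpf in WT, and 44.3 RPKM (mean) in Nanog+SoxB1 MO. The ctsla level was 486 RPKM in WT at 2 hpf and 1615 ± 155 RPKM (SD, n = 3) at 6 hpf. In Nanog+SoxB1 MO at 6 hpf ctsla was at 898 ± 9.15 RPKM (SD, n = 2), where ctsll was at 1.67 RPKM. Maternal and zygotic RNA of ctsla were not told apart. Centring moves each of these list changes by the same -0.29, which leaves the direction of every gene named from the lists as given. The calls of the list genes with centred libraries were not taken out, so the list counts hold for the main setting only.

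Markers of the yolk syncytial layer and of other cell types moved in the same comparison, in which 14% of all genes were called lower and 30.3% higher. Of 5 regulators of the yolk syncytial layer, hnf4a (-6.06 ± 0.30, SE, log2), mxtx1 (-4.39 ± 0.21), mxtx2 (-3.42 ± 0.27) and gata5 (-1.71 ± 0.19) fell and eomesa rose by 2.70 ± 0.23. Their summed level was 154 to 166 RPKM in WT and 31.2 to 35.1 RPKM in Nanog+SoxB1 MO, where 1 of the 5 was at 0 in replicate 1. Of 13 plasma protein and transporter genes, 4 passed the filter, mainly through libraries in which they are high, and were called lower: slc26a1 (-6.63 ± 0.27), tfa (-4.67 ± 0.33), fetub (-4.51 ± 0.37) and a2ml (-1.82 ± 0.38). The 13 summed to 95.2 to 140 RPKM in WT, with 4 to 7 at 0, and to 1.91 to 2.73 RPKM in Nanog+SoxB1 MO, with 8 or 9 at 0. Of the 5 regulators, hnf4a, mxtx1, mxtx2 and gata5 were at 20.5 to 61.0 RPKM in WT and eomesa at 2.70 RPKM, and eomesa was at 20.2 RPKM in Nanog+SoxB1 MO.

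Of 12 markers of the enveloping layer, the outer epithelium, 10 fell, beside 14% of all genes, led by krt5 (-5.84 ± 0.47), krt17 (-5.20 ± 0.26), cyt1l (-4.91 ± 0.45) and cyt1 (-4.70 ± 0.35). They summed to 3706 to 4555 RPKM in WT and 1095 to 1257 RPKM in Nanog+SoxB1 MO, with none at 0. Of 8 markers of the deep cells, 7 fell, led by eve1 (-6.99 ± 0.22), sox3 (-6.40 ± 0.18), foxa3 (-3.18 ± 0.17) and gsc (-2.75 ± 0.20), with sums of 867 to 875 and 188 to 205 RPKM and 1 marker at 0 in each Nanog+SoxB1 MO library. Of 10 oocyte and germ plasm markers, 8 rose, beside 30.3% of all genes, led by buc (+3.64 ± 0.23), tdrd6 (+3.40 ± 0.13), slbp2 (+2.93 ± 0.23) and btg4 (+2.83 ± 0.14), with sums of 134 to 190 and 538 to 586 RPKM and none at 0. In MZpou5f1 the regulators summed to 118 RPKM, the enveloping layer markers to 2901 RPKM and the deep cell markers to 765 RPKM, and 0 of 5, 2 of 12 and 1 of 8 fell in limma, beside 2.73% of all genes. The part of cell composition in the members' changes was not tested.

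Across the 31 exon libraries mttp, afp4 and ctsll were the most alike, and apoc1 was more like each of them than like apoeb. Pearson correlations of log2(RPKM + 0.5), given as a description over libraries that share stages and treatments, were 0.988 between afp4 and ctsll, 0.978 between mttp and either, 0.910 to 0.930 between apoc1 and these 3, 0.894 between apoeb and apoc1 and 0.822 to 0.837 between apoeb and the same 3. Among 17738 genes, the non-members closest to apoeb were dusp6, a feedback inhibitor of FGF signalling (0.964), dleu7 (0.960) and the FGF receptor gene fgfr4 (0.945). Among those closest to apoc1 was anxa1, which encodes an annexin (0.963). For mttp they were ENSDARG00000076271 (0.997), s1pr5a, a sphingosine-1-phosphate receptor (0.994), and the solute carrier slc43a3 (0.993); for afp4 the cadherin cdh6 (0.989), the carbonic anhydrase cahz (0.989) and nt5c2b (0.985); and for ctsll the amino acid transporter slc7a8 (0.983), zgc:112994 (0.983) and ENSDARG00000060181 (0.981).

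In the RefSeq annotation of the assembly GRCz12tu, which is not the build of the files and was used for gene order only, apoeb and apoc1 are next to each other in a row of apolipoprotein genes. Their level at 6 hpf in WT, 950 and 506 RPKM, was not shared by the neighbours: apoa4b.2, on the other side of apoeb, was at 1.50 RPKM, apoc4 at 0.0767 RPKM, apoa2 at 1.48 RPKM and apoc2 at 24.1 RPKM. The symbol afp4 belongs to a second identifier in the files as well, whose exon level was 37.5, 19.3 and 23.9 RPKM in WT at 6 hpf, 174 RPKM in poly(A)+ RNA at 8 hpf and 0 in both Nanog+SoxB1 MO libraries. In other conditions the second entry stood at a lower share of WT than the first. It was at 29.5% in MZpou5f1 and 2.15% in MZpou5f1 SoxB1 MO at 6 hpf, beside 50.3% and 28.6%. With rescue it was at 3.66% at 6 hpf and 13.5% at 8 hpf, beside 41.4% and 41.7%. The sources used here do not say how reads were shared between these entries, so the afp4 level is uncertain to that extent.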

How the data were processed

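The exon and intron values the authors deposited are RPKM. The deposited profiling values are labelled RPKM too, but were read as RPM, since each column holds whole multiples of 1 step regardless of gene length. Per the submitters' processing notes, TopHat2 2.0.7, Bowtie 0.12.9 and CASAVA 1.8.2 were used with build Zv9 (danRer7). Per the labels, embryos were whole, total RNA was depleted of rRNA and libraries were strand-specific. Entries joining overlapping genes (846 exon, 626 intron) were left out. Profiling reads were recovered from the RPM step (100% of values whole within 0.1 read). No read counts are in the RPKM tables, so absolute depth is unknown; reads of a gene were estimated from its smallest step between libraries. Models were fitted in limma 3.58.1 under R 4.3.3, with eBayes and a trend, on log2(exon RPKM + 0.5) or log2(intron RPKM + 0.1), for genes at 1 (introns 0.1) RPKM or more in at least 2 libraries. A gene was called at a two-sided p under 0.05 after Benjamini-Hochberg adjustment over all genes tested. The 6 hpf fit had 11 libraries and 3 residual degrees of freedom, the 4 hpf fit 8 and 4, the rescue fit 9 and 4, and the WT stage fit 5 and 2. Alternatives were other pseudocounts, filters, centring, eBayes without trend, a replicate block and leaving out libraries. The fits were tested on simulated data. The members and gene lists were chosen with earlier results of these data known. Genes named from a list are up to 4 each way with the largest change among those called in Nanog+SoxB1 MO against WT at 6 hpf, and nearest patterns are the 3 highest correlations per member, of which 2 for apoc1 are not reported here. No promoter, protein or other sequences were used here.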

Additional observations from a re-analysis of the deposited data

Results flagged for a closer look

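The ctsll exon level lay above WT at 4 hpf and below it at 6 hpf in MZpou5f1, with neither difference called. At 4 hpf it was at 1.51 RPKM in the library labelled MZpou5f1 and 1.26 RPKM in MZpou5f1 SoxB1 MO, above the 0.775 RPKM of WT, with an estimated 45, 24 and 20 reads. At 6 hpf the same conditions held 251 and 126 RPKM, below each of the WT libraries at 333 to 342 RPKM. The ctsll introns at 4 hpf were at 1.93 and 1.23 RPKM, beside 0.165 RPKM in WT. The MZpou5f1 effect on ctsll at 4 hpf was +0.35 ± 0.22 (SE, log2, limma adjusted p = 0.238), and MZpou5f1 against WT at 6 hpf was -0.43 ± 0.33 (adjusted p = 0.455), while MZpou5f1 SoxB1 MO against WT at 6 hpf was called lower (-1.43 ± 0.33, adjusted p = 0.024). At 4 hpf ctsll passed the filter only through the MZpou5f1 and MZpou5f1 SoxB1 MO libraries, so a higher level in MZpou5f1 was built into the estimate of that stage. The difference between the stages was not tested, each condition had 1 library per stage, and the library labelled MZpou5f1 at 4 hpf is the one with 28.0 RPKM of pou5f3.

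The profiling libraries at 2 hpf, which no comparison above uses, held 37 apoeb footprint reads in WT, 70.0 RPM with an exact 95% Poisson interval of 49.3 to 96.5 RPM, beside 2 reads in the matched poly(A)+ input, where total RNA at 2 hpf also listed apoeb at 0. They held 16 afp4 footprint reads, 30.3 RPM (17.3 to 49.2 RPM), beside 0 input reads, for which the same interval ends at 1.97 RPM and a limit of 3 reads gives 1.61 RPM. Nanog+SoxB1 MO gave 30 apoeb and 18 afp4 footprints, with 1 and 0 input reads. For mttp there were 6 and 0 footprints and for ctsll 3 and 1, with 0 input reads, and apoc1 was not found in the table. Intervals and limits cover counting error only. The afp4 transcript was matched by symbol. Of 4435 transcripts with at least 10 WT footprints, 48 had at most 2 input reads; by read number they were led by apobb.1 (187 footprints, 0 input), krt4 (171 and 1), col1a1a (105 and 0), bhmt (70 and 0), apoa1b (67 and 0) and apoa1a (63 and 0), and they also held the muscle gene ckmb (23 and 0) and the globin gene hbae3 (31 and 0). The origin of these footprints was not tested.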

How the results depend on the processing

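No member's log2 change that was called in the main fit or in the alternative was reversed. Of the recomputed member changes, 1115 kept their side of the threshold, 89 lost their call and 28 gained it. Changes called in neither fit were not checked for direction and are among the 1115. In Nanog+SoxB1 MO, Nanog MO, triple loss and both inhibitors against WT at 6 hpf, and in the WT stages, all 5 members were called in every exon alternative. For members below 1 RPKM in a condition, a filter on low values builds in such a difference. Without a filter on low values, 1 member was called in MZpou5f1 against WT, 2 in MZpou5f1 SoxB1 MO against WT, 1 in Nanog+SoxB1 MO against Nanog MO (769 genes), 1 for the Nanog MO effect at 4 hpf (665 genes) and 1 in triple loss over 4 to 8 hpf (315 genes). That setting called 821 genes in MZpou5f1 SoxB1 MO against MZpou5f1, 1430 in triple loss against MZpou5f1 SoxB1 MO, 0 for the SoxB1 MO effect, 25 in rescue against WT and 61 in rescue against triple loss. Where a member count in this paragraph has no number of genes beside it, the share of all genes called is not given. Nanog+SoxB1 MO against Nanog MO called 1 member with a pseudocount of 0.1 or without trend, and mttp was gained with a filter at 5 RPKM (adjusted p = 0.0277) or centring (0.0371). MZpou5f1 SoxB1 MO against MZpou5f1 gave 46 genes with a pseudocount of 1, 84 with a filter at 5 RPKM, 80 centred and, without trend, 3 genes and 0 members. Triple loss against MZpou5f1 SoxB1 MO gave 387 genes without trend. At 4 hpf the Nanog MO effect gave 564 genes without trend and 1 member without trend or with a filter at 5 RPKM, and the SoxB1 MO effect 50 genes with a filter at 5 RPKM, 8 centred and 0 without trend. Rescue against WT gave 201 genes with a pseudocount of 0.1, 83 with 1, 56 with a filter at 5 RPKM and 224 without trend. Without 4 hpf, triple loss, rescue against WT and rescue against triple loss gave 10402, 7530 and 4834 genes and 5 members each; without 6 hpf 26, 0 and 28 genes, and without 8 hpf 29, 0 and 28, with 1 member in triple loss each time. The cause of these shifts was not tested.

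Leaving out 1 library at a time, the genes called ran from 3743 to 7335 in Nanog+SoxB1 MO against WT, 3124 to 5722 in Nanog MO, 94 to 1327 in MZpou5f1 (0 to 2 members), 2153 to 4827 in MZpou5f1 SoxB1 MO (4 to 5 members), 6697 to 8165 in triple loss, 3 to 124 in Nanog+SoxB1 MO against Nanog MO (0 to 1 members), 0 to 2 in MZpou5f1 SoxB1 MO against MZpou5f1 (0 members), 181 to 860 in triple loss against MZpou5f1 SoxB1 MO, 745 to 1593 for introns (2 to 5 members), and at 4 hpf 465 to 1274 for Nanog MO (0 to 2 members, ctsll included), 0 to 1 for SoxB1 MO and 4756 to 5855 for MZpou5f1 (1 to 2 members).

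The replicate numbers of WT and Nanog+SoxB1 MO at 6 hpf give 2 pairs. Over 14896 genes, the difference between replicates 1 and 2 in WT correlated at 0.0994 with that in Nanog+SoxB1 MO. A single difference per group cannot decide whether samples of the same number share a batch. With a replicate block all 5 members were called for exons (adjusted p at most 9.4e-06) and for introns (adjusted p 0.0354 to 0.0456), while the intron block called 570 genes against 2474. Depth limits the low values: 1 read is worth 11.4 times more RPKM in the shallowest library, Nanog+SoxB1 MO replicate 1 at 6 hpf, than in the deepest, cycloheximide at 4 hpf.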
